A study of Mus musculus with 12 samples.

Results

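The genes described here are those of branched-chain amino acid breakdown and its control in mouse skeletal muscle, taken by name from the table of gene expression: the transcription factor Klf15, carriers of branched-chain amino acids, the shared transamination and dehydrogenation steps with their kinase and phosphatase, and the enzymes of the separate leucine, isoleucine and valine arms. All 32 were among the 14270 genes of the table, and 29 reached the mean of 1 FPKM (fragments per kilobase of transcript per 1e+06 fragments) over the 12 libraries that was asked of a gene to be tested. The 3 that did not were Slc7a5, Bcat1 and Abat.

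Leucine, isoleucine and valine are broken down largely outside the liver, and skeletal muscle carries out the opening step, in which the mitochondrial transaminase BCAT2 moves their amino group to 2-oxoglutarate. The resulting keto acids are either released to the blood or committed to oxidation by the branched-chain keto acid dehydrogenase (BCKDH) complex, which a kinase (BCKDK) switches off and a phosphatase (PPM1K) switches on. The arms then part: leucine gives acetyl-CoA and acetoacetate, valine gives propionyl-CoA, and isoleucine gives both acetyl-CoA and propionyl-CoA. KLF15 is known in mice as an activator of this breakdown in muscle, including of Bcat2, and its level follows the time of day.

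RNA was sequenced from tibialis anterior, a fast-twitch muscle of the lower leg, in 12 libraries that form 4 groups of 3: labelled KO at ZT10, labelled WT at ZT10, labelled KO at ZT22 and labelled WT at ZT22. Per the series title, KO stands for a knockout of the REV-ERB receptors restricted to skeletal muscle, and WT for wild type. The genes of these nuclear receptors, which repress transcription within the circadian clock, are Nr1d1 and Nr1d2. ZT is zeitgeber time in hours after lights on. The times are those of the sample titles, while ZT0 and ZT12 stand in the design text of the series, so the clock hour of each group is uncertain. Which library belongs to which group is taken from the titles as well. The sources used here give neither the driver and alleles of the knockout nor the strain, sex and age of the mice. The labels call the libraries of a group separate samples and say no more, so p-values measure the spread between these samples, which may be partly technical.

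The check of the targeted genes did not show a loss. Nr1d1 averaged 427 ± 72.1 FPKM in libraries labelled KO and 32.1 ± 4.71 FPKM in libraries labelled WT at ZT10 (SD, n = 3 each), and 350 ± 21 against 48.2 ± 8.88 FPKM at ZT22. Nr1d2 averaged 39.1 ± 2.25 FPKM in libraries labelled KO and 41.2 ± 3.24 FPKM in libraries labelled WT at ZT10, and 37.6 ± 1.30 against 29.1 ± 0.673 FPKM at ZT22. A value per gene cannot show the loss of part of a gene, so KO and WT are used here as the labels of the libraries.

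Library KO replicate 3 at ZT10 stood apart. Its log2(FPKM + 1) values correlated at r = 0.978 and 0.982 with the other libraries of its group across genes, where those correlated at 0.992 with each other. It held the highest of the 12 values for 11 of the 32 members (34.4%), beside 15.9% of all genes tested, so many differences at ZT10 are also given without it. Depth was estimated roughly, and libraries came to between 11.2 and 13.7 times 1e+06 fragments. In whole muscle, fewer cells of a type and less RNA per cell cannot be told apart.

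Levels spanned a wide range, and FPKM values, being per length, can be set against each other between genes. By the mean of 12 libraries the order ran from Oxct1 (157 FPKM), Dld (150.4), Hibadh (117), Bckdha (117), Acat1 (110.2), Echs1 (106), Ivd (91.8), Bckdk (90.7) and Aldh6a1 (82.2) down to Slc7a8 (6.60), Slc43a1 (6.21) and Ppm1k (4.45). Between them lay Pccb, Hsd17b10, Acadsb, Mcee, Bcat2, Auh, Mut, Klf15, Hibch, Pcca, Bckdhb, Mccc2, Dbt, Acad8, Mccc1, Slc25a44 and Slc3a2, in that order, from 53.7 to 10.2 FPKM. Among these 29 the ranges of neighbours over the 12 libraries overlapped throughout, for example 126 to 175 FPKM for Oxct1 and 131 to 166 FPKM for Dld. Enzymes that other pathways share, such as Oxct1, Dld, Acat1 and Echs1, were among the 6 highest. Slc7a5 lay between 0.23 and 2.60 FPKM, Abat between 0.26 and 1.30, and Bcat1, the cytosolic transaminase, between 0.00 and 0.07.

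**Figure D1:**
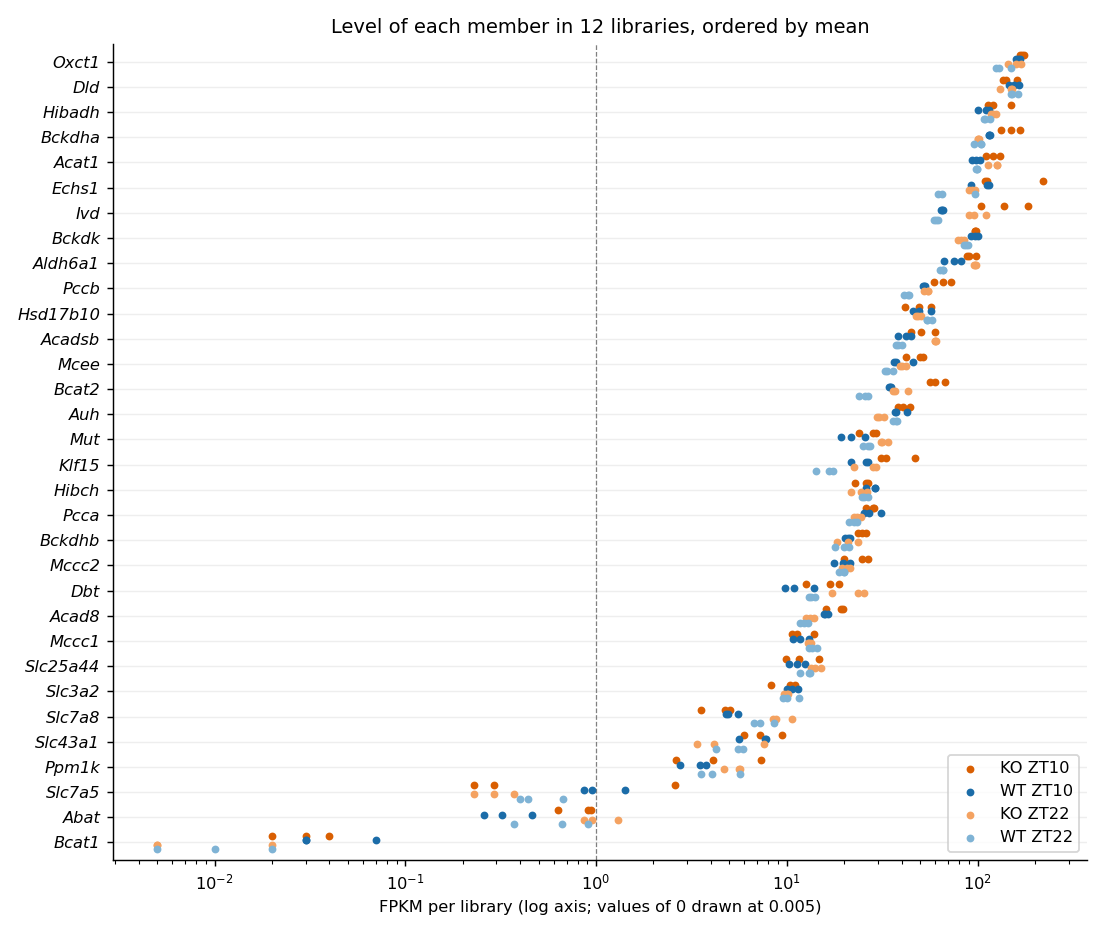
FPKM of all 32 members in each of the 12 libraries, on a log axis, ordered by the mean; colours mark label and time, and the dashed line marks 1 FPKM. Oxct1 and Dld sit highest, Slc7a5, Abat and Bcat1 lie at the low end, and Ivd and Echs1 each have a library labelled KO at ZT10 far to the right, at 185 and 221 FPKM.

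Summed over the 32 members, the level was 1770 ± 171 FPKM in libraries labelled KO and 1470 ± 43.5 FPKM in libraries labelled WT at ZT10 (SD, n = 3 each). At ZT22 it was 1530 ± 18.5 FPKM in libraries labelled KO and 1330 ± 42.3 FPKM in libraries labelled WT. The sums of the groups did not overlap at either time, with 1601 as the lowest sum labelled KO and 1510 as the highest labelled WT at ZT10, and 1515 and 1381 at ZT22. The heavily expressed genes dominate such a sum.

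The comparison of KO with WT asks which steps of the pathway differ at each time of day. At ZT10, 7 of the 29 tested members were higher in libraries labelled KO: Klf15, Bcat2, Bckdha, Ivd, Acat1, Aldh6a1 and Pccb. The calls are from limma on log2(FPKM + 1) at a Benjamini-Hochberg adjusted p under 0.05 over 9953 genes. None was lower. Among all genes tested, 5.36% were called higher and 8.96% lower. The median log2 difference was 0.24 over the 29 members and -0.05 over all genes tested. An unadjusted p under 0.05 was reached by 14 of the 29 (48.3%), all of them higher, beside 28.9% of all genes tested in either direction. The libraries labelled KO all lay above those labelled WT in 10 members and below them in 0, beside 11.1% and 19.1% of all genes tested. Without KO replicate 3 the members' median was 0.10 and 6 were called, Klf15 and Aldh6a1 no longer passing and Mcee passing. All genes tested then had 507 higher and 736 lower, with a median of -0.06.

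At ZT22, 8 of the 29 were higher in libraries labelled KO (Klf15, Bcat2, Dbt, Ivd, Acadsb, Acat1, Aldh6a1 and Pccb) and 1, Auh, was lower. Among all genes tested, 7.13% were called higher and 11.2% lower. The median log2 difference was 0.15 over the members and -0.04 over all genes tested. An unadjusted limma p under 0.05 was reached by 12 of the 29 (41.4%), all but Auh higher, beside 32.2% of all genes tested in either direction. Groups were separated upwards in 12 members and downwards in 3 (Bckdk, Hsd17b10 and Auh), beside 18.3% and 23.1% of all genes tested. The 6 members called at both times were 6 of the 7 called at ZT10 and 6 of the 9 called at ZT22. The same overlap over all genes was not computed, so this is a count only. The 2 comparisons share no library but do share the estimate of spread. The split of higher and lower calls over all genes moved with the scaling. At ZT10 it was 533 higher and 892 lower as deposited, and 744 and 659 after median-of-ratios scaling, with 11 members higher and 0 lower. At ZT22 it was 710 and 1116 as deposited, and 911 and 919 after that scaling, with 9 members higher and 0 lower. Removing a transcript length trend gave 712 higher and 686 lower at ZT10 and 980 and 968 at ZT22, with 9 and 10 members higher and 0 lower.

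**Figure D2:**
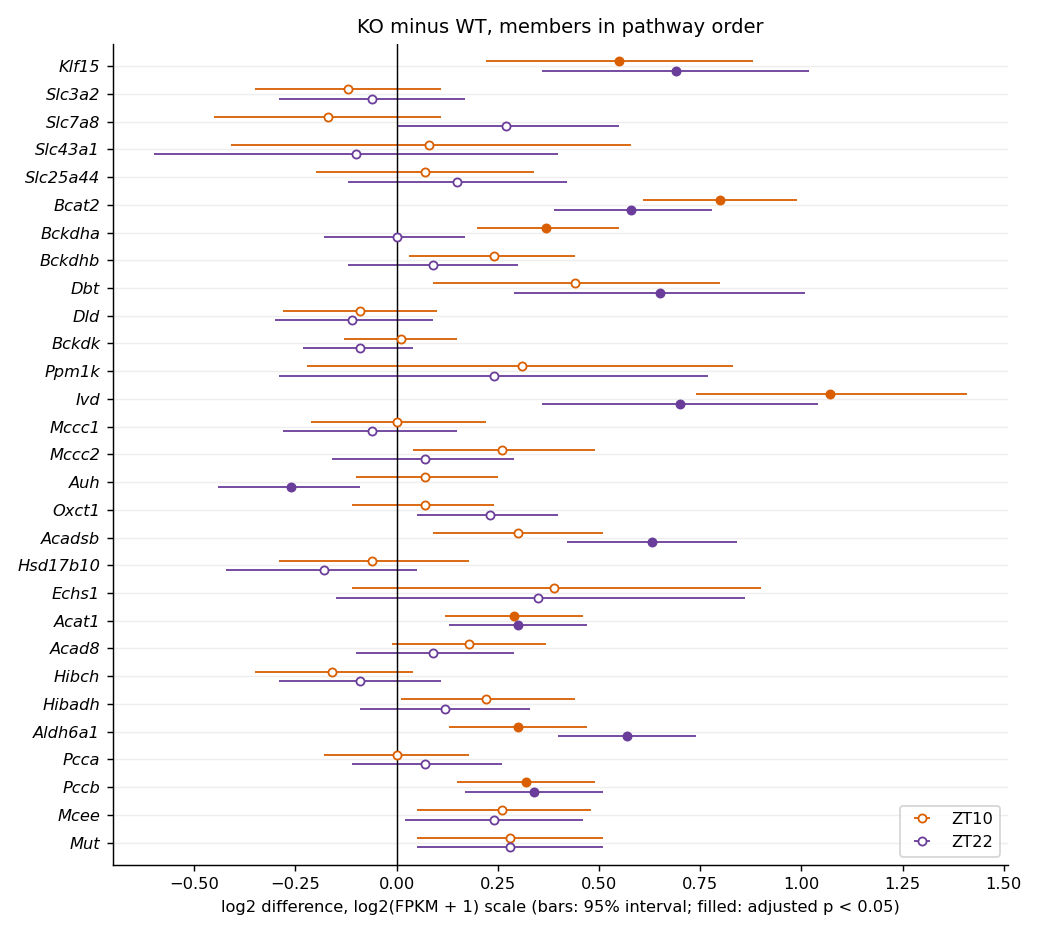
Log2 difference KO minus WT of the 29 tested members at ZT10 and ZT22, on the log2(FPKM + 1) scale, in the order of the pathway; bars are 95% intervals from limma and filled points passed the adjusted test. Most points lie right of 0, Ivd at ZT10 (1.07) farthest, while Auh at ZT22 (-0.26) is the filled point on the left.

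Klf15, the transcription factor, was higher in libraries labelled KO at both times. It stood at 33.0, 31.2 and 47.2 FPKM in libraries labelled KO and at 26.1, 26.6 and 21.6 FPKM in libraries labelled WT at ZT10. The values at ZT22 were 22.6, 28.2 and 29.4 FPKM in libraries labelled KO and 17.4, 14.3 and 16.7 FPKM in libraries labelled WT. The groups did not overlap at either time, and the highest value of all was that of KO replicate 3 at ZT10. The log2 difference was 0.55 ± 0.15 at ZT10 (SE; limma adjusted p = 0.0314) and 0.69 ± 0.15 at ZT22 (adjusted p = 0.00879). At ZT10 the call was lost without KO replicate 3 (0.37, adjusted p = 0.0832) and without WT replicate 1 (0.59, 0.0509), 2 (0.60, 0.0576) or 3 (0.46, 0.126), and with only the libraries compared (0.55, 0.0881). The ZT22 call was kept under every alternative tried.

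Klf15 lies on chromosome 6 at 90462576 to 90475238 of GRCm38, plus strand. The 250 bases before its RefSeq start (chr6:90462326-90462575, GRCm38.p6, plus strand) are shown because they carry letters of an E-box, CACGTG, the hexamer bound by clock factors such as BMAL1 with CLOCK. Capitals mark each copy.
Klf15: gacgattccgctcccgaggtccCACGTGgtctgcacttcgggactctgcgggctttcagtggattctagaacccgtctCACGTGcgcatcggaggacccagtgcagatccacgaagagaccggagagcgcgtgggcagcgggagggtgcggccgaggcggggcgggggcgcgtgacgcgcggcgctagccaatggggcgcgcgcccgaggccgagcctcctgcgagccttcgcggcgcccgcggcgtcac
The copies begin at -228 and -172 from the start, and another at -3 runs across it. CACGTG was found in 7.15% of all 32851 RefSeq promoter windows (250 bases before to 50 after a start), and 3 or more copies in 29 of them (0.0883%). The cut of 3 copies is the count of Klf15 itself, so the latter share is a description only. RefSeq windows were at hand for 26 of the 32 members. Among these 26, CACGTG was also present for Slc43a1 and Mccc2, which with Klf15 made 3 of their 31 windows. The letters TAGGTCA, a site that REV-ERB and ROR receptors bind as monomers, were in the windows of 0 of 26 members and in 2.61% of all windows. The D-box letters TTATGTAA and TTACGTAA were likewise in 0 of 26, and in 0.938% and 0.119% of all windows. All motifs were searched on both strands. A match describes letters and not binding, and an absent match says nothing of sites elsewhere.

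Among the carriers none was called between KO and WT. Slc3a2, the heavy chain that escorts light chains such as SLC7A5 to the cell surface, differed by -0.12 ± 0.11 at ZT10 (limma adjusted p = 0.503) and -0.06 ± 0.11 at ZT22 (0.749). Slc7a8, a light chain that carries large neutral amino acids, stood at 3.57, 5.04 and 4.77 FPKM in libraries labelled KO and 5.58, 4.93 and 4.80 FPKM in libraries labelled WT at ZT10. Its ZT22 values were 8.83, 8.43 and 10.7 FPKM in libraries labelled KO and 7.27, 6.73 and 8.57 FPKM in libraries labelled WT. The ranges overlapped at both times, and all 6 libraries at ZT22 were above all 6 at ZT10. Its log2 difference was -0.17 ± 0.13 at ZT10 (adjusted p = 0.419) and 0.27 ± 0.13 at ZT22 (0.160). Slc43a1, another large neutral amino acid carrier, differed by 0.08 ± 0.23 at ZT10 (95% interval -0.41 to 0.58) and by -0.10 ± 0.23 at ZT22 (-0.60 to 0.40), and Slc25a44, the mitochondrial carrier of branched-chain amino acids, by 0.07 ± 0.12 and 0.15 ± 0.12. Slc7a5, below the filter, had 0.29, 0.23 and 2.60 FPKM in libraries labelled KO and 0.95, 1.41 and 0.86 FPKM in libraries labelled WT at ZT10, so that the highest value was again that of KO replicate 3 and the other libraries labelled KO lay below all those labelled WT. At ZT22 it had 0.23, 0.37 and 0.29 FPKM in libraries labelled KO and 0.44, 0.67 and 0.40 FPKM in libraries labelled WT.

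Bcat2, the mitochondrial transaminase that starts the breakdown of all 3 amino acids, was higher in libraries labelled KO at both times. It stood at 60.1, 56.6 and 67.3 FPKM in libraries labelled KO and 35.3, 34.3 and 34.7 FPKM in libraries labelled WT at ZT10. At ZT22 it stood at 36.9, 36.2 and 43.3 FPKM in libraries labelled KO and 25.8, 24.0 and 26.6 FPKM in libraries labelled WT. The groups did not overlap at either time, and every library labelled KO at ZT22 exceeded every library labelled WT at ZT10. On the log2 scale the difference was 0.80 ± 0.09 at ZT10 (limma adjusted p = 9.64e-05) and 0.58 ± 0.09 at ZT22 (adjusted p = 0.000932). It was 0.73 at ZT10 without KO replicate 3 (adjusted p = 0.000174), and both calls held under every alternative tried. Bcat2 lies on chromosome 7 at 45570153 to 45589711 of GRCm38, plus strand, and 622 of its 3900 exon bases overlap the antisense gene 0610005C13Rik, which is not in the table used here.

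**Figure D3:**
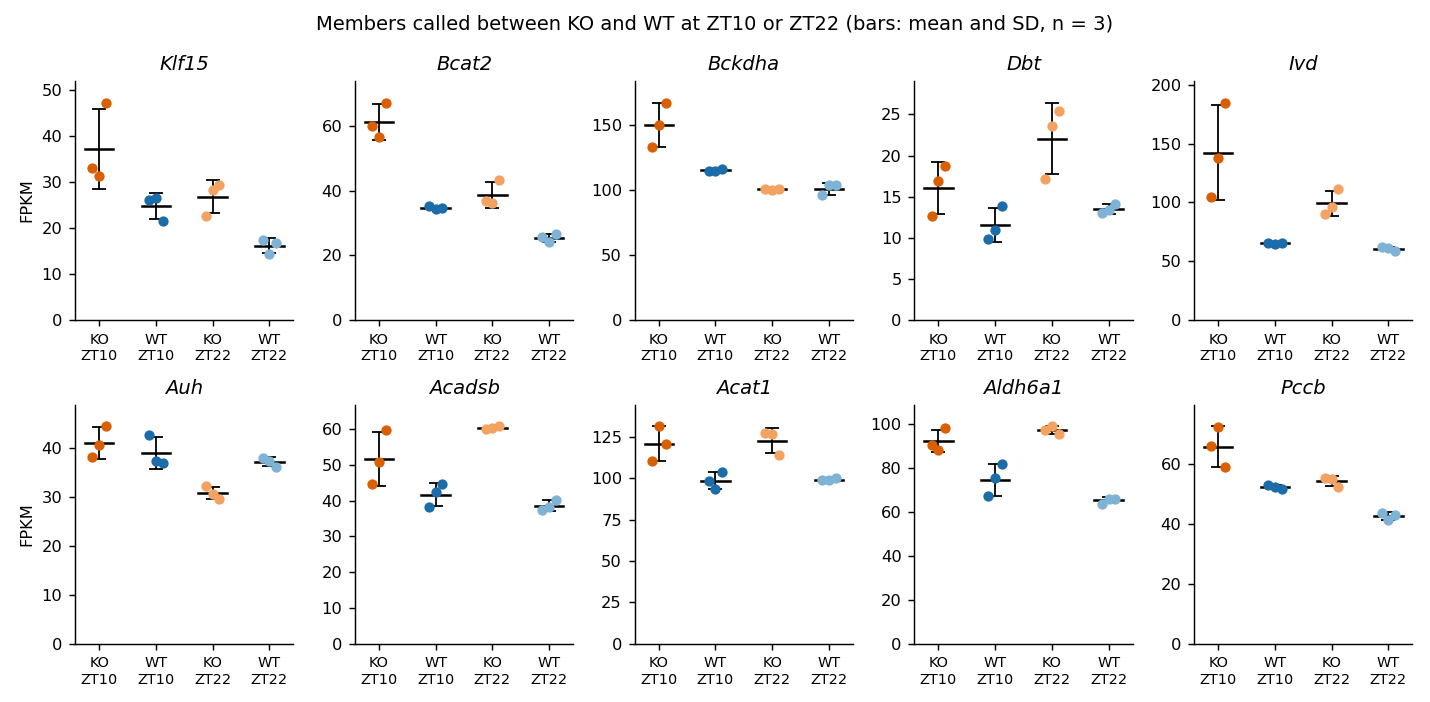
FPKM per library of the 10 members called between KO and WT at ZT10, ZT22 or both, with the mean and SD of each group of 3 as black bars. Klf15, Bcat2, Ivd, Acat1, Aldh6a1 and Pccb are separated at both times, Bckdha coincides at ZT22, and Auh lies below WT in the libraries labelled KO at ZT22.

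In the BCKDH complex, each time had 1 subunit called higher and they were different subunits. Bckdha, the E1 alpha subunit, stood at 133, 151 and 167 FPKM in libraries labelled KO and at 115, 115 and 116 FPKM in libraries labelled WT at ZT10. The values at ZT22 were 101, 100.5 and 101 FPKM in libraries labelled KO and at 96.1, 104 and 104 FPKM in libraries labelled WT. The groups were apart at ZT10 and overlapped at ZT22. The log2 difference was 0.37 ± 0.08 at ZT10 (limma adjusted p = 0.00912; without KO replicate 3, 0.29 and 0.0178) and 0.00 ± 0.08 at ZT22 (adjusted p = 0.984). The ZT10 call was lost when the fit used only the 6 libraries compared (adjusted p = 0.0735). Of the 1899 exon bases of Bckdha, 1171 overlap B3gnt8 on the opposite strand. B3gnt8 lay between 0.18 and 0.60 FPKM, and the sources used here do not say whether counting used the strand.

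Dbt, the E2 subunit that forms the core of the complex, was called at ZT22. It stood at 17.2, 23.6 and 25.4 FPKM in libraries labelled KO and 13.0, 13.4 and 14.1 FPKM in libraries labelled WT at ZT22. At ZT10 it stood at 12.6, 16.9 and 18.8 FPKM in libraries labelled KO and 9.82, 10.9 and 13.8 FPKM in libraries labelled WT. The groups were apart at ZT22 and overlapped at ZT10. On the log2 scale the difference was 0.44 ± 0.16 at ZT10 (limma adjusted p = 0.0949) and 0.65 ± 0.16 at ZT22 (adjusted p = 0.0172). The ZT22 call was lost without KO replicate 2 or 3 and without WT replicate 1 or 2, with adjusted p between 0.0562 and 0.0693, and the ZT10 difference passed without KO replicate 1 (0.60, 0.0284) and in the fit with a replicate block (0.44, 0.0170) and was 0.33 without KO replicate 3 (0.256).

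Bckdhb, the E1 beta subunit, differed by 0.24 ± 0.10 at ZT10 (adjusted p = 0.122), with groups apart, and by 0.09 ± 0.10 at ZT22 (0.563). Dld, the E3 subunit that the pyruvate and 2-oxoglutarate dehydrogenases also use, differed by -0.09 ± 0.09 and -0.11 ± 0.09, with 95% intervals of -0.28 to 0.10 and -0.30 to 0.09. Set against the complex, Bcat2 was between 0.376 and 0.451 of Bckdha in libraries labelled KO and between 0.298 and 0.306 in libraries labelled WT at ZT10. At ZT22 that ratio of FPKM was between 0.360 and 0.428 in libraries labelled KO and between 0.231 and 0.269 in libraries labelled WT. The ratio was thus separated at both times, which is a description without a test.

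The kinase and the phosphatase of the complex were not called. Bckdk stood at 97.0, 98.7 and 96.6 FPKM in libraries labelled KO and 97.5, 92.6 and 100.3 FPKM in libraries labelled WT at ZT10. Its ZT22 values were 81.5, 84.5 and 78.7 FPKM in libraries labelled KO and 86.9, 85.3 and 89.2 FPKM in libraries labelled WT. The libraries labelled KO lay below those labelled WT at ZT22 by a narrow margin, and the ranges overlapped at ZT10. The log2 difference was 0.01 ± 0.06 at ZT10 (95% interval -0.13 to 0.15) and -0.09 ± 0.06 at ZT22 (-0.23 to 0.04; adjusted p = 0.328). Ppm1k, at 2.62, 4.10 and 7.32 FPKM in libraries labelled KO and 2.77, 3.51 and 3.78 FPKM in libraries labelled WT at ZT10, was the least precise of the pair. Its difference was 0.31 ± 0.24 at ZT10 (adjusted p = 0.441), was -0.01 without KO replicate 3, and was 0.24 ± 0.24 at ZT22 (adjusted p = 0.529). The ratio of Bckdk to Bckdha was between 0.577 and 0.729 in libraries labelled KO and between 0.808 and 0.861 in libraries labelled WT at ZT10, and between 0.779 and 0.841 against 0.821 and 0.904 at ZT22, where the ranges overlapped.

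In the leucine arm, Ivd, which encodes isovaleryl-CoA dehydrogenase, the acyl-CoA dehydrogenase specific to leucine, had the largest KO minus WT difference of the 29 members on the log2(FPKM + 1) scale at ZT10. At ZT22 it stood level with Klf15 (0.70 against 0.69), and by the ratio of mean FPKM Klf15 was ahead (1.66 against 1.64 for Ivd). Ivd stood at 104, 138 and 185 FPKM in libraries labelled KO and at 65.8, 64.5 and 65.5 FPKM in libraries labelled WT at ZT10. At ZT22 it stood at 90.3, 96.0 and 111 FPKM in libraries labelled KO and at 61.7, 60.9 and 58.8 FPKM in libraries labelled WT. The groups were far apart at both times, and the libraries labelled KO were spread much more widely at ZT10 than those labelled WT. On the log2 scale the difference was 1.07 ± 0.15 at ZT10 (limma adjusted p = 0.000673; without KO replicate 3, 0.87 and 0.000332) and 0.70 ± 0.15 at ZT22 (adjusted p = 0.00885). Both calls held under every alternative tried.

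The 250 bases before the RefSeq start of Ivd (chr2:118861744-118861993, GRCm38.p6, plus strand) are shown for the member with the largest difference at ZT10. Capitals mark CCACCC, letters of the core bound by the KLF family.
Ivd: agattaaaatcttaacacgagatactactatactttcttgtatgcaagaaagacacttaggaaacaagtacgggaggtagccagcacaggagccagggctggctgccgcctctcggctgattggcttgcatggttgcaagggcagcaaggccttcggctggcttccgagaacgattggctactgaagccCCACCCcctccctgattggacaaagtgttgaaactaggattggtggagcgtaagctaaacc
The copy begins at -61. CCACCC was in the windows of 11 of the 26 members (Acad8, Aldh6a1, Bcat2, Bckdhb, Echs1, Hsd17b10, Ivd, Mccc1, Pcca, Slc43a1 and Slc7a8). Counted by window, it was in 12 of the 31 windows of these 26 members, beside 31.5% of all windows.

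Mccc1 and Mccc2 encode the subunits of methylcrotonoyl-CoA carboxylase, a biotin enzyme. Mccc1 differed by 0.00 ± 0.10 at ZT10 and -0.06 ± 0.10 at ZT22, and Mccc2 by 0.26 ± 0.10 (adjusted p = 0.114; 0.18 and 0.298 without KO replicate 3) and 0.07 ± 0.10. At ZT10 Mccc2 passed after median-of-ratios scaling (0.32, 0.0476) and without KO replicate 1 (0.38, 0.0200). Auh, which encodes methylglutaconyl-CoA hydratase, the next enzyme, was the member that was lower. It stood at 32.2, 30.5 and 29.6 FPKM in libraries labelled KO and 38.0, 37.4 and 36.2 FPKM in libraries labelled WT at ZT22, and at 38.1, 40.6 and 44.4 FPKM in KO against 42.7, 37.2 and 36.9 FPKM in WT at ZT10. The groups were apart at ZT22 and overlapped at ZT10. Its difference was 0.07 ± 0.08 at ZT10 (limma adjusted p = 0.600; 0.02 without KO replicate 3) and -0.26 ± 0.08 at ZT22 (adjusted p = 0.0420), and the ZT22 call was lost under 11 alternatives, among them the replicate block (0.0614), median-of-ratios scaling (-0.22, 0.0889) and leaving out any library of ZT22. Oxct1, the CoA transferase through which muscle uses acetoacetate, differed by 0.07 ± 0.08 at ZT10 (adjusted p = 0.632) and 0.23 ± 0.08 at ZT22 (0.0704).

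In the isoleucine arm, 2 of 4 enzymes were called. Acadsb, the short/branched-chain acyl-CoA dehydrogenase, stood at 60.1, 60.2 and 60.7 FPKM in libraries labelled KO and 37.5, 38.2 and 40.2 FPKM in libraries labelled WT at ZT22. At ZT10 it stood at 44.7, 50.7 and 59.8 FPKM in libraries labelled KO and 38.1, 42.3 and 44.5 FPKM in libraries labelled WT. The groups were apart at both times, narrowly at ZT10. The log2 difference was 0.30 ± 0.10 at ZT10 (limma adjusted p = 0.0603) and 0.63 ± 0.10 at ZT22 (adjusted p = 0.00106). The ZT22 call was kept under every alternative tried. The ZT10 difference was 0.19 without KO replicate 3 (adjusted p = 0.166), and it passed with the replicate block (0.30, 0.0385), after median-of-ratios scaling (0.36, 0.0246), with the length trend removed (0.37, 0.0155) and without KO replicate 1 (0.40, 0.0145). Acat1, the mitochondrial acetoacetyl-CoA thiolase that closes the isoleucine arm and also serves ketone bodies, was called at both times. It stood at 110.4, 131 and 121 FPKM in libraries labelled KO and 98.4, 93.4 and 104 FPKM in libraries labelled WT at ZT10. The values at ZT22 were 127, 127 and 114 FPKM in libraries labelled KO and 98.9, 98.7 and 99.8 FPKM in libraries labelled WT. The groups did not overlap at either time.

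For Acat1 the log2 difference was 0.29 ± 0.08 at ZT10 (limma adjusted p = 0.0289) and 0.30 ± 0.08 at ZT22 (adjusted p = 0.0208). The ZT10 call was lost without KO replicate 2 and without WT replicate 1 or 2 (adjusted p between 0.0554 and 0.109) and with only the libraries compared (0.126), and it held without KO replicate 3 (0.29, 0.0465). The ZT22 call was lost without KO replicate 1 or 2 and without WT replicate 1 or 2 (between 0.0649 and 0.0817). Echs1, the short-chain enoyl-CoA hydratase shared with fatty acid oxidation, stood at 112, 109.7 and 221 FPKM in libraries labelled KO and at 92.7, 112 and 115 FPKM in libraries labelled WT at ZT10. KO replicate 3 alone lay above the range of WT. Its difference of 0.39 ± 0.23 (adjusted p = 0.293) was 0.06 without that library. At ZT22 Echs1 differed by 0.35 ± 0.23 (adjusted p = 0.319), and Hsd17b10, the next dehydrogenase, by -0.06 ± 0.11 at ZT10 and -0.18 ± 0.11 at ZT22 (adjusted p = 0.266, groups apart).

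In the valine arm, Aldh6a1, the methylmalonate semialdehyde dehydrogenase that makes propionyl-CoA, was called at both times. It stood at 90.4, 88.1 and 97.9 FPKM in libraries labelled KO and 67.1, 75.1 and 81.6 FPKM in libraries labelled WT at ZT10. Its ZT22 values were 97.1, 98.7 and 95.5 FPKM in libraries labelled KO and 63.5, 65.9 and 66.0 FPKM in libraries labelled WT. The groups did not overlap, and the gap was wider at ZT22. On the log2 scale the difference was 0.30 ± 0.08 at ZT10 (limma adjusted p = 0.0224) and 0.57 ± 0.08 at ZT22 (adjusted p = 0.000514). At ZT10 the call was lost without KO replicate 3 (0.26, 0.0535) and without WT replicate 1 (0.23, 0.0620) or 2 (0.31, 0.0590), and with only the libraries compared (0.30, 0.123), while at ZT22 it held under every alternative tried. Of its 5784 exon bases, 1078 overlap Bbof1 on the opposite strand, which lay between 0.61 and 1.90 FPKM.

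The 250 bases before the RefSeq start of Aldh6a1 (chr12:84451025-84451274, GRCm38.p6, minus strand) hold CCACCC on the opposite strand, so that the capitals read GGGTGG.
Aldh6a1: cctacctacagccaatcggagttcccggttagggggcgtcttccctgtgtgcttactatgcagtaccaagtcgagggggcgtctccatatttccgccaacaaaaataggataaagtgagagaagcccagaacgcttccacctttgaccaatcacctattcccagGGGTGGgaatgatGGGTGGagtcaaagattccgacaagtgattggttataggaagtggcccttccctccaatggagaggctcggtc
The copies begin at -86 and -73. The sequence is shown for comparison with that of Ivd, as the member with the smallest adjusted p at ZT22.

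The remaining valine enzymes were not called. Acad8, the isobutyryl-CoA dehydrogenase, differed by 0.18 ± 0.09 at ZT10 (adjusted p = 0.197) and 0.09 ± 0.09 at ZT22. Hibch, the hydroxyisobutyryl-CoA hydrolase, differed by -0.16 ± 0.09 (95% interval -0.35 to 0.04) and -0.09 ± 0.09 (-0.29 to 0.11), and Hibadh, the next dehydrogenase, by 0.22 ± 0.10 (adjusted p = 0.155; 0.10 without KO replicate 3) and 0.12 ± 0.10. Abat, an aminotransferase below the filter, had 0.91, 0.94 and 0.63 FPKM in libraries labelled KO and 0.26, 0.46 and 0.32 FPKM in libraries labelled WT at ZT10. At ZT22 Abat had 0.86, 1.30 and 0.95 FPKM in libraries labelled KO and 0.66, 0.91 and 0.37 FPKM in libraries labelled WT. Its groups were apart at ZT10 and overlapped at ZT22.

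Propionyl-CoA from valine and isoleucine enters the citric acid cycle through propionyl-CoA carboxylase (Pcca and Pccb), an epimerase (Mcee) and the cobalamin enzyme methylmalonyl-CoA mutase (Mut). Pccb stood at 65.8, 72.4 and 58.9 FPKM in libraries labelled KO and 53.1, 52.2 and 51.8 FPKM in libraries labelled WT at ZT10. At ZT22 it stood at 55.2, 55.1 and 52.4 FPKM in libraries labelled KO and 43.7, 41.3 and 43.0 FPKM in libraries labelled WT. The groups were apart at both times, by 0.32 ± 0.08 at ZT10 (limma adjusted p = 0.0170) and 0.34 ± 0.08 at ZT22 (adjusted p = 0.0108). The ZT10 call was lost without KO replicate 2 and without WT replicate 2 or 3 (adjusted p between 0.0550 and 0.0619) and with only the libraries compared (0.101), and it held without KO replicate 3 (0.39, 0.00279). The ZT22 call held under every alternative tried.

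Its partner Pcca was not called, at 0.00 ± 0.08 at ZT10 (95% interval -0.18 to 0.18) and 0.07 ± 0.08 at ZT22 (-0.11 to 0.26). Pcca averaged 27.7 ± 1.31 FPKM in libraries labelled KO and 27.8 ± 2.93 FPKM in libraries labelled WT at ZT10. Mcee differed by 0.26 ± 0.10 at ZT10 (adjusted p = 0.103; 0.36 and 0.0289 without KO replicate 3, 0.37 and 0.0276 without WT replicate 1) and 0.24 ± 0.10 at ZT22 (0.119), with groups apart at ZT22, where it passed with only the libraries compared (0.0295) and with the length trend removed (0.0130). Mut differed by 0.28 ± 0.11 at both times (adjusted p = 0.103 at ZT10 and 0.0854 at ZT22), also with groups apart at ZT22, and it passed at both times after median-of-ratios scaling (0.0370 and 0.0368) and with the length trend removed (0.0269 and 0.0387).

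When only the 6 libraries compared entered the fit, 2 members were called at ZT10, Bcat2 and Ivd, against 7 with all 12 libraries. Calls over all 9953 genes tested fell as well, from 533 higher and 892 lower to 317 and 431. Beside the libraries, the authors' deposited table gives its own comparison, with q under 0.05 for 8 members higher and 0 lower at ZT10 and for 18 higher and 6 lower at ZT22, of 32. Over all genes that table has q under 0.05 for 6.8% at ZT10 and 54.8% at ZT22. In the authors' deposited table q was below p for 7694 of 14270 genes at ZT22 and for 0 at ZT10, so its 2 columns are not on 1 footing.

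**Figure D4:**
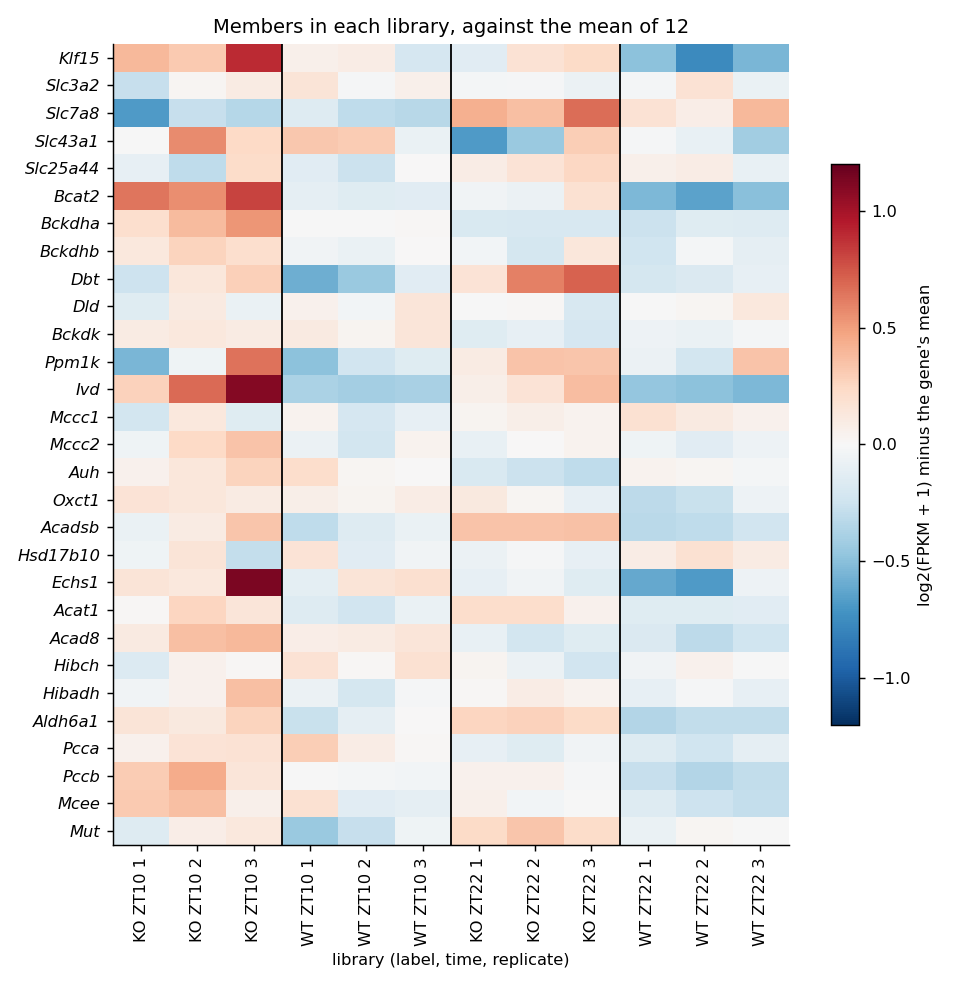
Log2(FPKM + 1) of the 29 tested members in each library, minus the gene's mean over 12 libraries, with groups divided by lines. Bcat2, Ivd and Klf15 are darkest red in the libraries labelled KO at ZT10, above all in replicate 3, where Echs1 stands out too, and Slc7a8 and Dbt are red in the libraries labelled KO at ZT22.

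The comparison of ZT22 with ZT10 asks how the pathway differs between the times within each label. In libraries labelled KO, 9 members were lower at ZT22 (Klf15, Bcat2, Bckdha, Bckdk, Ivd, Auh, Acad8, Pcca and Pccb) and 1, Slc7a8, was higher. Among all genes tested in that comparison, 28.9% were called higher and 13.7% lower. In libraries labelled WT, 6 members were lower at ZT22 (Klf15, Bcat2, Oxct1, Acad8, Pcca and Pccb) and Slc7a8 was higher, beside 18.4% of all genes called higher and 5.77% lower. The members' median was -0.12 in libraries labelled KO and -0.10 in libraries labelled WT, and the median over all genes was 0.11 and 0.09. Median-of-ratios scaling brought the all-gene median to 0.00 and -0.01. Relative to that, the members' median was -0.25 and -0.22, with 14 lower and 1 higher in libraries labelled KO and 9 lower and 0 higher in libraries labelled WT. The split of all calls was 2872 higher and 1367 lower in libraries labelled KO as deposited, and 2036 and 2184 after scaling. In libraries labelled WT it was 1830 and 574 as deposited, and 1192 and 1127 after scaling.

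At ZT22, Bcat2 fell by 0.65 ± 0.09 relative to ZT10 in libraries labelled KO (limma adjusted p = 0.000174) and fell by 0.43 ± 0.09 in libraries labelled WT (adjusted p = 0.00487), both kept under every alternative tried. Klf15 fell by 0.44 ± 0.15 in libraries labelled KO (adjusted p = 0.0343) and by 0.59 ± 0.15 in libraries labelled WT (0.0161), and in libraries labelled KO the call was lost under 4 alternatives. These were leaving out KO replicate 3 of ZT10 (-0.26, adjusted p = 0.117) or KO replicate 1 (-0.33, 0.138) or 2 (-0.48, 0.0529) of ZT22, and using only the libraries compared (0.0805). Without WT replicate 1 or 2 of ZT10 or WT replicate 2 of ZT22, the fall of Klf15 in libraries labelled WT did not pass, at an adjusted p between 0.0569 and 0.0702. Bckdha fell by 0.56 ± 0.08 in libraries labelled KO (adjusted p = 0.000228) and differed by -0.19 ± 0.08 in libraries labelled WT (0.110), where it passed after median-of-ratios scaling (-0.31, 0.0179). Bckdk, the kinase, fell by 0.25 ± 0.06 in libraries labelled KO (0.00674) and differed by -0.15 ± 0.06 in libraries labelled WT (0.104), where it passed after that scaling too (-0.27, 0.0202). Slc7a8 was the member that went the other way, by 0.92 ± 0.13 in libraries labelled KO (0.000196) and 0.48 ± 0.13 in libraries labelled WT (0.0186; lost under 5 alternatives, with 0.38 and 0.0585 after scaling).

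Farther down the pathway, Ivd fell by 0.48 ± 0.15 in libraries labelled KO (limma adjusted p = 0.0247) and differed by -0.11 ± 0.15 in libraries labelled WT (0.648). The call of Ivd was lost under 5 alternatives, among them leaving out KO replicate 3 of ZT10 (-0.28, 0.0657) or KO replicate 1 of ZT22 (-0.42, 0.0876). Auh fell by 0.40 ± 0.08 in libraries labelled KO (0.00204) and differed by -0.06 ± 0.08 in libraries labelled WT (0.614). Oxct1 fell by 0.28 ± 0.08 in libraries labelled WT (0.0259) and differed by -0.12 ± 0.08 in libraries labelled KO (0.253). That call of Oxct1 was lost when any library labelled WT but replicate 3 of ZT22 was left out, at an adjusted p between 0.0513 and 0.106. Acad8, Pcca and Pccb were called in both. Acad8 fell by 0.44 ± 0.09 in libraries labelled KO and by 0.35 ± 0.09 in libraries labelled WT, Pcca by 0.23 ± 0.08 and 0.30 ± 0.08, and Pccb by 0.27 ± 0.08 and 0.29 ± 0.08. Of these, the call of Pcca in libraries labelled KO (adjusted p = 0.0471) was lost under 12 alternatives and that in libraries labelled WT under 3. The call of Pccb was lost under 3 in libraries labelled KO and 2 in libraries labelled WT, and that of Acad8 under 1 in libraries labelled WT. Acat1 differed by 0.02 ± 0.08 in libraries labelled KO (95% interval -0.15 to 0.19) and 0.01 ± 0.08 in libraries labelled WT (-0.16 to 0.18).

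**Figure D5:**
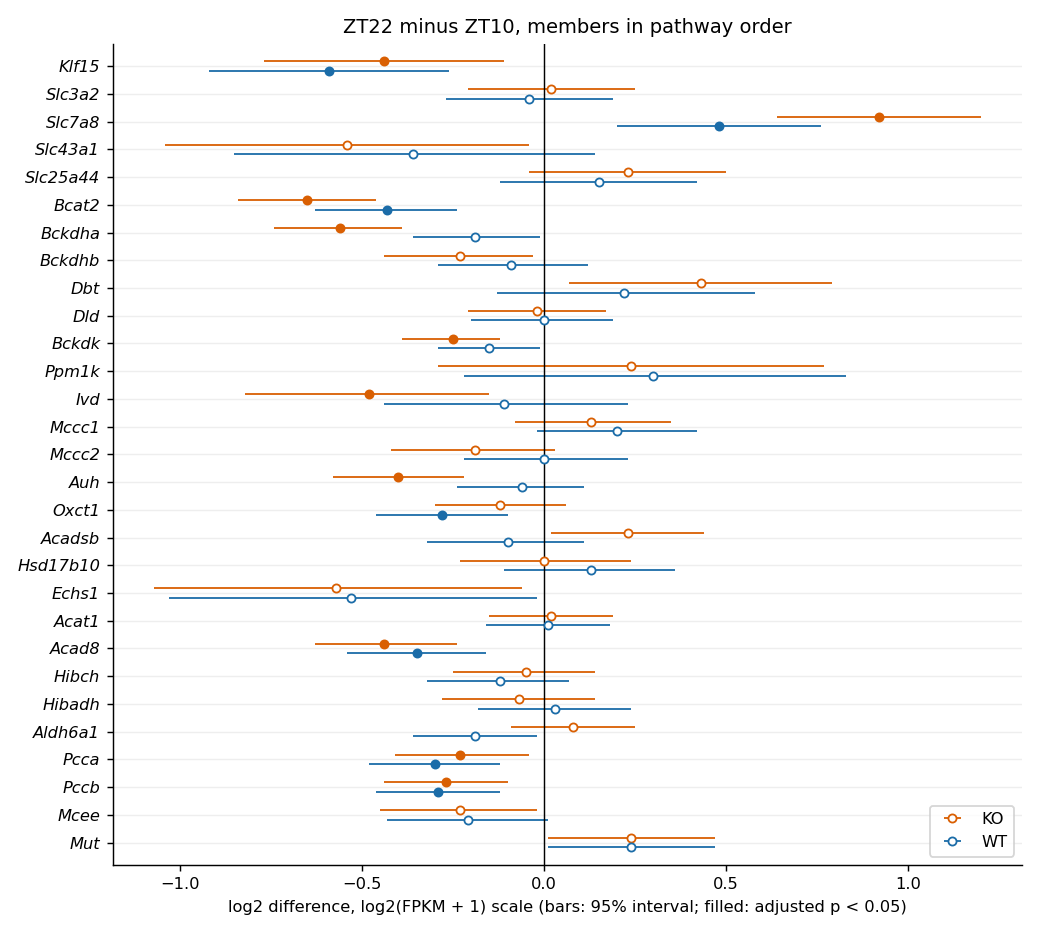
Log2 difference ZT22 minus ZT10 of the 29 tested members in libraries labelled KO and WT, on the log2(FPKM + 1) scale; bars are 95% intervals from limma and filled points passed the adjusted test. Bcat2, Klf15, Acad8, Pcca and Pccb are filled left of 0 in both, and Slc7a8 is filled right of 0 in both.

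Whether the KO minus WT difference itself changed between the times was tested by the interaction. No member passed in limma, and 4 of 9953 genes passed (0.0402%). An unadjusted p under 0.05 was reached by 5 of 29 members (17.2%), close to the 17.0% of all genes tested, so these 5 are given as values only. The 5 were Slc7a8 (0.44 ± 0.18), Bckdha (-0.38 ± 0.11), Auh (-0.34 ± 0.12), Acadsb (0.33 ± 0.14) and Aldh6a1 (0.26 ± 0.11), with adjusted p of 0.145 for Bckdha, 0.179 for Auh and 0.244 to 0.256 for the others. A positive value means a larger KO minus WT difference at ZT22. Thus the calls of Bckdha at ZT10 alone, and of Dbt, Auh and Acadsb at ZT22 alone, are not shown to differ between times. For Dbt the interaction was 0.21 ± 0.23 (adjusted p = 0.698).

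Next to the members, the genes that take up the nitrogen removed by BCAT2 differed in 2 of 7 cases at ZT10. Gpt was higher and Glul lower at ZT10, and Gpt was the 1 called at ZT22, higher as well. Gpt, the cytosolic alanine aminotransferase, stood at 62.9, 73.0 and 93.6 FPKM in libraries labelled KO and 13.7, 14.6 and 12.7 FPKM in libraries labelled WT at ZT10. The values at ZT22 were 33.5, 34.6 and 36.5 FPKM in libraries labelled KO and 11.5, 13.1 and 10.6 FPKM in libraries labelled WT. The groups were far apart at both times, by 2.38 ± 0.13 (limma adjusted p = 1.95e-07) and 1.5 ± 0.13 (adjusted p = 1.12e-05). Its mitochondrial counterpart Gpt2 differed by -0.24 ± 0.13 (0.255) and 0.26 ± 0.13 (0.194). Glul, glutamine synthetase, stood at 67.4, 62.1 and 126 FPKM in libraries labelled KO and 162, 160.5 and 137 FPKM in libraries labelled WT at ZT10, a difference of -0.91 ± 0.21 (adjusted p = 0.0122), and differed by 0.02 ± 0.21 at ZT22.

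The acyl-CoA dehydrogenases IVD, ACADSB and ACAD8 pass electrons to the flavoprotein of Etfa and Etfb and on to Etfdh. Of these 3, Etfa was higher at ZT10 (0.53 ± 0.15, limma adjusted p = 0.0308) and Etfb lower at ZT22 (-0.53 ± 0.13, adjusted p = 0.0144), and Etfdh was not called. Among 12 genes that supply biotin, cobalamin or lipoate, Mmab (0.44 ± 0.11) and Lias (0.29 ± 0.09) were higher at ZT10 and Mmadhc was lower at ZT22 (-0.31 ± 0.07), with medians of 0.00 and -0.09.

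The kinases and phosphatases related to Bckdk and Ppm1k had 2 of 7 lower at ZT10 and 1 at ZT22. These were Pdp1, the pyruvate dehydrogenase phosphatase (-1.13 ± 0.07 and -0.57 ± 0.07), and, at ZT10, Pdk1 (-0.45 ± 0.10). Of 9 tested partners of Dld in other complexes, 2 were lower at ZT10, Dlat (-0.41 ± 0.10) and Pdha1 (-0.35 ± 0.09), and at ZT22 3 were lower and 1, Dhtkd1 (0.47 ± 0.13), was higher. Of 5 tested other neutral amino acid carriers, Slc7a6 was lower at ZT10 (-0.34 ± 0.10) and none was called at ZT22. Of 10 tested genes of leucine sensing at mTORC1, Mtor (-0.37 ± 0.11) and Sar1b (-0.34 ± 0.08) were lower at ZT10, and at ZT22 Sesn3 was lower (-0.73 ± 0.17) and Rragd higher (0.33 ± 0.08).

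Of 13 tested regulators known to act with Klf15 or on the pathway, Ppard was higher (0.70 ± 0.14) and Ppara (-0.73 ± 0.11) and Esrra (-0.32 ± 0.10) lower at ZT10, and Esrra was lower at ZT22 (-0.54 ± 0.10), with medians of -0.32 and -0.20. Neighbouring oxidative pathways had calls in both directions. Mitochondrial fatty acid oxidation had 2 of 14 higher and 2 lower at ZT10 and 1 higher and 3 lower at ZT22, with medians of 0.06 and -0.13. The citric acid cycle had 1 of 15 higher and 0 lower at ZT10 and 2 higher and 5 lower at ZT22, with medians of -0.01 and -0.17. No test set these lists against the members. Without KO replicate 3 the ZT10 calls of Lias, Slc7a6, Mtor, Pdha1 and Esrra were lost, at an adjusted p between 0.0673 and 0.129, and fatty acid oxidation had 2 higher and 0 lower. Etfa then differed by 0.32 (0.0415), Mmab by 0.38 (0.0422), Gpt by 2.23 (6.34e-08), Glul by -1.23 (2.63e-05) and Ppard by 0.53 (0.0107).

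Some marker genes differed between the labels as well. The summed level of 9 muscle fibre markers was between 116100 and 122500 FPKM in libraries labelled KO and between 93920 and 105500 in libraries labelled WT at ZT10. At ZT22 it was between 89550 and 93880 FPKM in libraries labelled KO and between 73300 and 83010 in libraries labelled WT. Of these 9, 4 were higher and 1 lower at ZT10, and 2 higher and 1 lower at ZT22, with Myh1 the lower one each time. Without KO replicate 3, 2 were higher and 0 lower at ZT10. The median log2 difference of the fibre markers was 0.25 at ZT10 (0.28 without KO replicate 3) and 0.11 at ZT22. Over the 29 members it was 0.24 (0.10 without that library) and 0.15. The 6 nerve and Schwann cell markers summed to between 24.7 and 25.9 FPKM in libraries labelled KO and between 17.4 and 22.7 in libraries labelled WT at ZT10, with Mbp called higher at both times. Of the 7 endothelial markers, 0 were called at ZT10 and 2 were lower at ZT22, with sums between 90.5 and 103 FPKM in libraries labelled KO and between 103.7 and 132 in libraries labelled WT.

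Adipocyte markers, of interest because fat also breaks down branched-chain amino acids, had 0 of 5 tested called at either time. Their median log2 difference KO minus WT was still 0.66 at ZT10 (0.54 without KO replicate 3) and -0.33 at ZT22. Their sums were between 131 and 183 FPKM in libraries labelled KO and between 137 and 167 in libraries labelled WT at ZT10, and between 147 and 178 in libraries labelled KO and between 169 and 239 in libraries labelled WT at ZT22. Slow fibre markers had 1 of 8 called higher at ZT10, Myl2 (3.55 ± 0.72, and 3.07 without KO replicate 3, limma adjusted p = 0.0192), and 0 at ZT22. Their median was -0.02 at ZT10 and -0.14 at ZT22. Of the slow markers not called at ZT10, Myh2, Tnnt1, Tnni1 and Tpm3 had negative differences, and Tnnc1, Myl3 and Atp2a2 positive ones. Macrophage, fibroblast and erythroid markers had 0 called at either time, and satellite cell markers had 1 of 2 tested called, Vcam1 at ZT22. The part of these shifts in the members' differences was not tested.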

How the data were processed

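Values are those of the table the authors deposited, taken as FPKM although its header names no unit, because the 12 library columns, multiplied by transcript length in kb summed to between 1012451 and 1076507. Per the submitters' processing notes, GRCm38 and mm10 were the builds and HISAT2, HTSeq and DESeq2 1.8.2 the tools, with no role stated and no strand setting. The authors' deposited log2 fold changes and their p-value and q-value columns were used in 1 paragraph, with no model named for them in the sources used here. Of 14583 entries, 82 held no values, 230 were repeats and 1 was a second entry of a gene, leaving 14270 genes, 14084 of them matched to GENCODE M21. Counts could not be recovered, so no count test was run; depth was estimated from steps between low values (mean cosine 0.358 to 0.571), and no intervals or floors were drawn from it.

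Groups come from the sample titles. The test used the 9953 genes whose mean reached 1 FPKM, as log2(FPKM + 1), in 1 model of 4 group means over 12 libraries with limma 3.58.1 (R 4.3.3, intensity trend, Benjamini-Hochberg over all genes tested, two-sided), and this scale understates changes of low genes. The members, lists and tests were chosen with earlier results of these data known. All members are named, and from other lists at most 4 genes called between KO and WT. Alternatives were a pseudocount of 0.1, no filter, the replicate number as a block, robust empirical Bayes, only the libraries compared, median-of-ratios scaling, removal of a transcript length trend (lowess, span 0.3) and leaving out each library. Sequences and motif shares are from RefSeq promoter windows of GRCm38.p6, exon overlaps from GENCODE. A planned comparison of protein sequences was not run. The genes of 1 list are not reported here. Python 3.11.15 with pandas 2.3.3 and matplotlib 3.10.9 was used for tables and plots.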

Additional observations from a re-analysis of the deposited data

How the results depend on the processing

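Members called at ZT10 numbered 7, moved to 2 with only the libraries compared and to 11 after median-of-ratios scaling, and ran from 3 (without WT replicate 2 of ZT10) to 12 (without KO replicate 1) when 1 library was left out. Over all genes tested at ZT10, 533 were higher and 892 lower in the main fit, and 317 and 431 with only the libraries compared. These counts were 744 and 659 after median-of-ratios scaling. Without that WT replicate 2 they were 344 and 514, and without that KO replicate 1 they were 640 and 922. Over time, members called in libraries labelled KO moved from 10 to 6 with only the libraries compared, and those in libraries labelled WT from 7 to between 2 (without WT replicate 2 of ZT22) and 9 with 1 library left out (KO replicate 3 of ZT10). Over all genes, the calls labelled KO moved from 2872 higher and 1367 lower to 2468 and 1079 with only the libraries compared. Those labelled WT moved from 1830 and 574 to 945 and 345, and to 2147 and 782, in the same 2 fits with 1 library left out. The cause of these moves was not tested. Counts at ZT22 stayed within 1.5 times the main count. The interaction gave 0 members under every alternative it could be fitted with.

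Directions turned only in differences that were not called. At ZT10 these were Hsd17b10 (0.00 after median-of-ratios scaling; -0.16 to 0.06 with 1 library left out) and Pcca (0.00 with pseudocount 0.1, 0.06 after median-of-ratios scaling, 0.05 with the length trend removed; -0.06 to 0.08). With 1 library left out they were also Bckdk (-0.02 to 0.04), Mccc1 (-0.10 to 0.08), Ppm1k (-0.01 to 0.59), Slc25a44 (-0.07 to 0.19) and Slc43a1 (-0.07 to 0.22). At ZT22 they were Bckdha (0.04 scaled, 0.06 length trend removed; -0.04 to 0.02), Slc3a2 (0.01 length trend removed; -0.11 to 0.02) and Slc43a1 (-0.39 to 0.10). Over time in libraries labelled WT it was Auh (-0.10 to 0.00). In the interaction they were Acat1 (-0.01 scaled, -0.03 length trend removed; -0.05 to 0.07) and Pccb (-0.05 to 0.09).

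Whether replicate numbers pair the samples is not settled by the values. Deviations of same-numbered libraries correlated at -0.134 to 0.21 over 18 pairs, with a median of 0.062. Those of other-numbered libraries correlated at -0.2 to 0.135 over 36 pairs, with a median of -0.024. Deviations were taken from the group mean and sum to 0 within a group. The medians therefore depend on each other, and the pairs are not separate observations. With the replicate block, members called were 9 at ZT10, 8 at ZT22, 12 over time labelled KO, 7 over time labelled WT and 0 in the interaction. Over all genes the block gave 545 higher and 866 lower at ZT10, and 673 and 1068 at ZT22. Over time it gave 2836 and 1359 labelled KO and 1805 and 580 labelled WT. In the interaction it gave 3 and 2. With 3 libraries a group and FPKM without counts, small KO minus WT differences such as those of Bckdk, Pcca and Dld cannot be told from 0.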
